A study of Mus musculus with 4 samples.

Results

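The genes described here copy DNA in S phase: they license origins, unwind and prime DNA, synthesise and join the new strands, supply nucleotides and restore chromatin behind the fork. They were chosen by gene symbol from a list of 52. All probe sets annotated with a single symbol from that list were taken. This gave 113 probe sets for 51 of the 18193 genes named on the arrays. No expression value was taken for Chaf1a, of which only the promoter was analysed here. Of these 51 genes, 50 were measured, meaning that at least 1 probe set was at or above a signal floor in both samples, among 10171 measured genes in all. The floor was the median signal of the array design, 736 on MOE430A and 942 on MOE430B, in MAS5 units. Of the member probe sets, 75.2% were at or above it in both samples, against 46.8% of all single-symbol probe sets.

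Neurospheres are free-floating balls in which neural stem cells and their progeny are grown. They came from the forebrain of E12.5 mouse embryos, with the ventral telencephalon given as the source. Each genotype, wild type and the E2F4 knockout of the labels, gave 1 RNA sample. Both were run on the Affymetrix designs MOE430A and MOE430B, 4 arrays in all. The labels do not give the strain, the sex, the construction of the knockout allele, the passage or the number of embryos behind a culture. The labels give the aim as finding the signalling pathways that E2F4 deletion affects in neural stem cells. With 1 sample per genotype there was no test, no value has an error from replicate samples, and culture and genotype cannot be told apart.

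Replication starts at origins bound by the origin recognition complex, where Cdc6 and Cdt1 load the MCM helicase in G1 and the kinase Cdc7 with Dbf4, Cdc45 and the GINS complex switch it on in S phase. Many of these genes are classical targets of E2F transcription factors. E2F4 acts mostly as a repressor: with the pocket proteins p107 and p130, and within the DREAM complex, it keeps cell-cycle genes low in resting and early G1 cells. E2F sites lie mainly in promoters of S-phase genes. A second element, the cell cycle genes homology region or CHR, is found in promoters of genes expressed later, in G2 and mitosis.

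Promoter sequences from RefSeq on the assembly GRCm38.p6, which ran from 250 bases before a start site to 50 bases after it, were held for 44 of the 52 listed genes. The E2F motif was searched on both strands in 4 forms that differ in the middle letters: the form TTCCCGC, then the form TTGGCGC, then the form TTCGCGC and last the form TTGCCGC. Matches on opposite strands that overlap were counted separately. At least 1 match was found in 29 of the 44 genes, or 65.9%, against 19.9% of the 8249 measured genes with a promoter and 10.9% of all 27025 genes of the table. At least 2 matches were found in 29.5% of the replication genes and in 2.79% of the measured genes. The CHR motif, searched as TTTGAA on both strands, was in 18.2% of the replication promoters and 14.5% of measured genes, but in 69.7% of 33 promoters of mitosis genes, of which 15.2% held the E2F motif. A match is a description of the letters in this window and shows no binding.

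**Figure D1:**
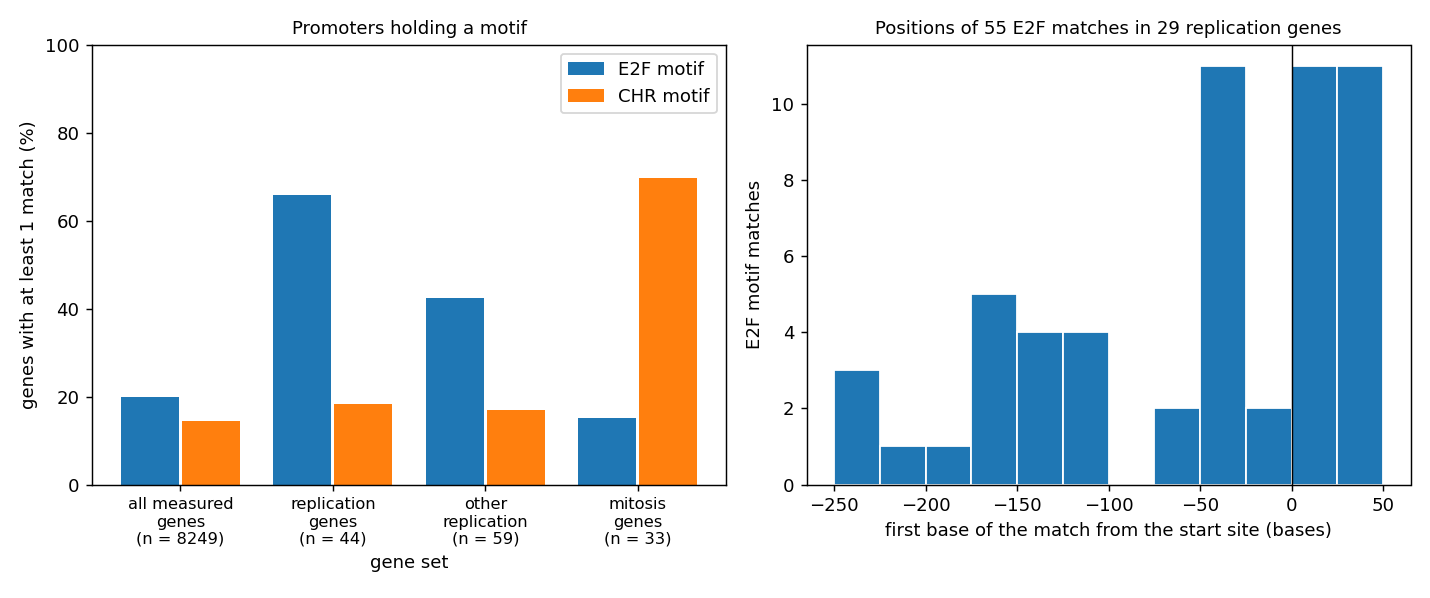
Left, share of genes (%) with at least 1 E2F motif (blue) or CHR motif (orange) in the 300-base promoter window, for all measured genes, the replication genes, other genes of the replication pathway and mitosis genes. Right, distance of the first base of each E2F match from the start site in 29 replication genes, in bins of 25 bases, counted for each start site; 35 of 55 matches began within 50 bases of it. The E2F motif was in 65.9% of replication genes and 15.2% of mitosis genes, and the CHR motif in 18.2% and 69.7%.

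The stretches below show E2F matches, in capitals, in members of the different roles, read 5′ to 3′ on the strand of the gene; they were chosen after the matches were found. That of Mcm6 holds 2 copies of a compound element in which a match on each strand overlaps. Those of Rfc5 and Mcm10, the members farthest from equal signal in each direction, are the 100 bases before the start site and hold no match.
Orc1, chr4:108579407-108579453, + strand: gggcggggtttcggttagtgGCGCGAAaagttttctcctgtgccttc
Mcm5, chr8:75109325-75109386, + strand: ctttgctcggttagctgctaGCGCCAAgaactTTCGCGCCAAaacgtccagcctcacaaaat
Mcm6, chr1:128359722-128359834, - strand: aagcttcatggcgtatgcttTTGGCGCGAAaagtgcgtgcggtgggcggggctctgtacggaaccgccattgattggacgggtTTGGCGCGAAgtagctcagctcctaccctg
Pola1, chrX:93632250-93632344, - strand: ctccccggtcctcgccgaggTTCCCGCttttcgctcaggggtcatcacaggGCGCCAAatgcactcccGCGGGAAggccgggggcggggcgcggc
Rpa2, chr4:132768303-132768349, + strand: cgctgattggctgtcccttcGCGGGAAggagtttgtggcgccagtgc
Rrm1, chr7:102441608-102441654, + strand: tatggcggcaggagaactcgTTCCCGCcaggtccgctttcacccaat
Uhrf1, chr17:56303269-56303315, + strand: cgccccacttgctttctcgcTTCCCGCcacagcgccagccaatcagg
Rfc5, chr5:117389024-117389123, - strand: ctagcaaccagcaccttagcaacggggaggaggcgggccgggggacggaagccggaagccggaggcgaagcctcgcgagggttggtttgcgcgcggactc
Mcm10, chr2:5012792-5012891, - strand: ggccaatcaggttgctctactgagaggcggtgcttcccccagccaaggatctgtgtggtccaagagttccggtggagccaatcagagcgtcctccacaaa

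The replication genes were close to equal in the 2 samples. Their median log2 ratio (knockout over wild type) was 0.09, beside a median of -0.0013 over all measured genes. Of the 50 measured members, 38 were higher in the knockout sample and 12 lower, where 49.8% of all measured genes were higher and 50.2% lower. At least 1.5-fold higher were 2 members, Rfc5 and Pole, against 3.51% of all measured genes. At least 1.5-fold lower was 1 member, Mcm10, against 3.86% of all measured genes. No member differed 2-fold, as 0.531% of measured genes did upwards and 0.482% downwards, and the members ran from -0.60 to 0.75 on the log2 scale.

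**Figure D2:**
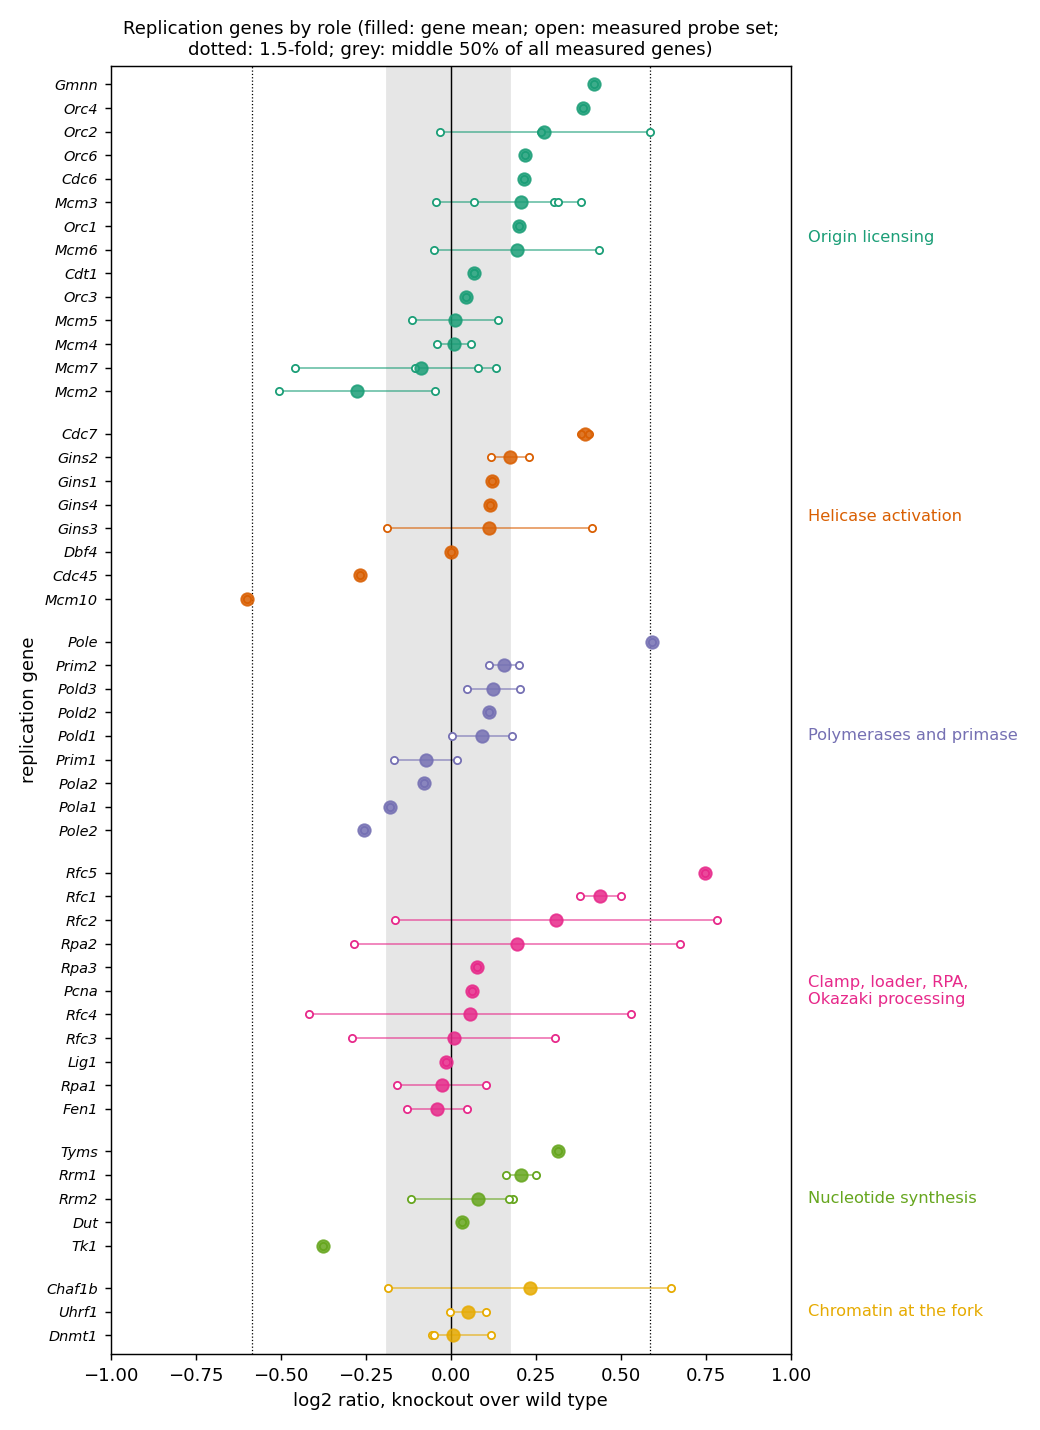
Log2 ratio of knockout over wild type (x axis) for the 50 measured replication genes (y axis), grouped by role. Filled points are gene means over measured probe sets, open points single probe sets joined by a line, the grey band the middle 50% of all measured genes (-0.19 to 0.18) and the dotted lines a 1.5-fold difference; most genes sit a little right of 0, and Rfc5, Pole and Mcm10 alone have means past the dotted lines.

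The measure of error these arrays hold is the disagreement between probe sets of the same gene. Pooled over genes, the SD between probe sets was 0.30 on the log2 scale for the 27 members with more than 1 measured probe set, and 0.33 over 3956 such genes in all. The 99 probe sets that both designs carry and measured gave log2 ratios whose difference between designs had an SD of 0.31. Among the 27 members, all probe sets were higher in the knockout sample for 8, all lower for 1 and mixed for 18, or 29.6%, 3.7% and 66.7%. Over all genes with more than 1 measured probe set the shares were 21.7%, 20.4% and 57.9%. No member had measured probe sets more than 1 apart on the log2 scale, though Rpa2, Rfc4 and Rfc2 came near it. Chaf1b, Dnmt1, Mcm5, Pold3 and Rfc2 were measured on both designs, and 4 of these 5 had opposite signs on them; Pold3 was at 0.20 on MOE430A and 0.05 on MOE430B.

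Origin licensing genes had a median of 0.20, with 12 of 14 measured genes higher in the knockout sample. Subunits of the origin recognition complex, which marks origins, were higher in 5 of 5 measured cases, between 0.05 for Orc3 and 0.39 for Orc4. Orc4 had a signal of 952 in wild-type cells and 1242 in the knockout sample on its 1 measured probe set, and a second probe set, at 833 and 594, reached the floor only in wild-type cells and lay the other way, at least 1.13-fold lower. Orc2 averaged 0.27 over 3 probe sets, which read 760, 1727 and 862 in wild-type cells and 1138, 1687 and 1034 in the knockout sample. The higher mean of Orc2 therefore came from its dimmer probe sets. Orc5, at 645 and 1013, reached the floor only in the knockout sample, at least 1.38-fold higher. Orc1 was at 0.20 and Orc6 at 0.22, on 1 measured probe set each.

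The loading factors Cdc6 and Cdt1 were likewise slightly higher, as was Gmnn, an inhibitor of loading. Gmnn, the gene of geminin, which binds Cdt1 and blocks renewed licensing, was the highest of the role, with 2299 in wild-type cells and 3074 in the knockout, a log2 ratio of 0.42 or 1.34-fold. Cdc6 was at 908 and 1052, a log2 ratio of 0.22. Cdt1 read 4238 and 2765 in wild-type cells and 4435 and 2891 in the knockout sample on its 2 measured probe sets, which put both at 0.07. No other member with more than 1 measured probe set had them this close together.

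Subunits of the MCM helicase had a median of 0.01, with 4 of 6 higher. Mcm3 was at 0.21 from 5 probe sets between -0.04 and 0.38, and Mcm6 at 0.19 from probe sets at -0.05 and 0.44. Mcm4 and Mcm5 were at 0.01 each. A further Mcm5 probe set, at 749 and 1267, reached the floor only in the knockout sample and was at least 1.35-fold higher. Mcm7, from 4 probe sets between -0.46 and 0.13, was at -0.09. Mcm2 was the lowest licensing gene at -0.28. Its probe sets read 4735 and 6679 in wild-type cells and 3325 and 6456 in the knockout sample. Only the dimmer of these differed by more than 0.1 on the log2 scale, at -0.51.

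Among genes that activate the helicase, 6 of 8 were higher, with a median of 0.11, and the role also held the lowest member. Mcm10, which binds the helicase at the start of unwinding, read 2836 in wild-type cells and 1867 in the knockout sample on its 1 measured probe set, a log2 ratio of -0.60 or 1.52-fold lower. A second Mcm10 probe set went the other way: it read 681 and 1133, reached the floor only in the knockout sample, and was higher by at least 1.54-fold. The mean of Mcm10 was 0.07 with a floor at the 30th percentile of signals, which admits that probe set, so its direction was not settled. Cdc45, a partner of the active helicase, was split in the same way. It read 1599 and 1326 on the measured probe set, at -0.27, and 344 and 1340 on another, which reached the floor only in the knockout sample and was at least 1.42-fold higher.

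Of the other activators, Dbf4 was level and the rest averaged on the higher side. Cdc7, the kinase that triggers firing, was the highest of the role at 0.39, and both its probe sets read alike: 1157 and 1112 in wild-type cells, 1504 and 1470 in the knockout sample. Dbf4, its regulatory subunit, read 2735 and 2731, at 0.0015, and at -0.0018 before the median of its design was subtracted. The 4 GINS subunits lay between 0.11 and 0.17. The probe sets of Gins2 agreed, at 0.12 and 0.23, while those of Gins3 were at -0.19 and 0.42.

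**Figure D3:**
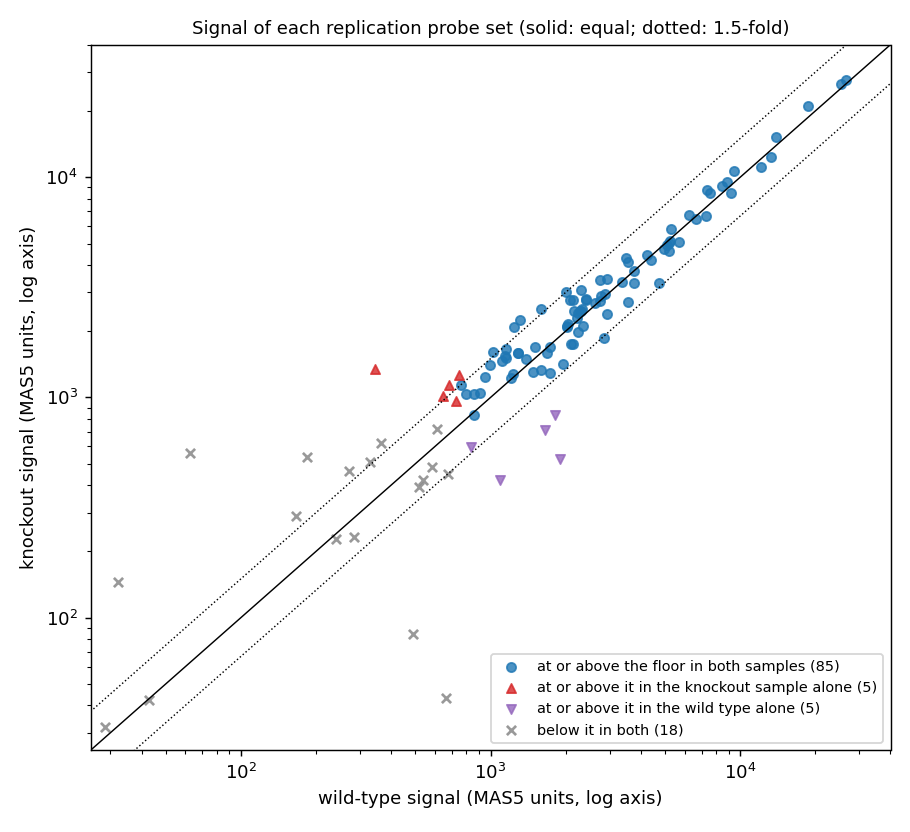
Wild-type signal (x axis) against knockout signal (y axis) for the 113 probe sets of the replication genes, in MAS5 units on log axes, with the line of equal signal and dotted lines at 1.5-fold. Of these probe sets, 85 were at or above the floor in both samples (circles) and lie close to the line, 5 reached it only in the knockout and 5 only in the wild type (triangles), and 18 in neither (crosses), where the scatter is wide.

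Polymerase and primase genes had a median of 0.09, with 5 of 9 higher. Pole, the catalytic subunit of the leading-strand polymerase, was the highest, with 2000 in wild-type cells and 3005 in the knockout sample on its 1 probe set, a log2 ratio of 0.59 or 1.51-fold. Pole2, its second subunit, was the lowest of the role, with 2099 and 1756, at -0.25. The 3 listed subunits of polymerase delta, which copies the lagging strand, lay between 0.09 and 0.13. Pold4, a subunit outside the member list, read 676 and 1008 and reached the floor only in the knockout sample. In the complex that lays down primers, Pola1 was at -0.18, Pola2 at -0.08, Prim1 at -0.07 and Prim2 at 0.16.

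Other probe sets of this role lay lower in the knockout sample than the measured ones. Prim2 had a probe set with 1895 and 527, at least 2.01-fold lower, beside measured ones at 0.11 and 0.20. Pola1 had 1 with 1805 and 834, at least 1.92-fold lower, and Pold3 had 1 with 1092 and 420, at least 1.48-fold lower. Each reached the floor only in wild-type cells. The median of the role was -0.26 with the floor at the 30th percentile and -0.35 with none, and -0.037 without probe sets ending in _x_at, _s_at or _a_at, so its direction depends on the floor and on the probe sets taken.

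Genes of the clamp, its loader, single-strand binding and Okazaki processing had a median of 0.06, with 8 of 11 higher. Pcna, the sliding clamp, was nearly equal, with 26414 in wild-type cells and 27537 in the knockout sample, at 0.06. The 5 subunits of replication factor C, which loads the clamp, were all on the higher side on average, with a median of 0.31. Rfc5 stood farthest from 0 of all members, with 1242 and 2081 on its 1 probe set, a log2 ratio of 0.75 or 1.68-fold. Rfc1, the large subunit, was at 0.44, and its measured probe sets read 997 and 796 in wild-type cells and 1408 and 1034 in the knockout sample. Rfc5 and Rfc1 were thus higher on each measured probe set.

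The remaining loader subunits were mixed. Rfc4 averaged 0.06 from probe sets at -0.42 and 0.53, Rfc3 0.01 from -0.29 and 0.31, and Rfc2 0.31 from -0.16 and 0.78. Another Rfc2 probe set, with 1650 and 708, reached the floor only in wild-type cells and was at least 1.75-fold lower. With the brightest probe set per gene, Rfc2 was at -0.16, Rfc3 at -0.29 and Rfc4 at -0.42, so the agreement of the 5 subunits in direction does not hold there. Of the single-strand binding protein RPA, Rpa2 was at 0.20 from probe sets at -0.28 and 0.67, Rpa3 at 0.08 and Rpa1 at -0.03. Fen1, which trims flaps of Okazaki fragments, was the lowest of the role, with 2218 and 7272 in wild-type cells and 2286 and 6635 in the knockout sample, at -0.04. Lig1, which joins the fragments, was at -0.01.

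Nucleotide synthesis genes had a median of 0.08, with 4 of 5 higher. Rrm1, the large subunit of ribonucleotide reductase, read 7567 and 7377 in wild-type cells and 8453 and 8751 in the knockout sample, a mean log2 ratio of 0.21 from probe sets at 0.16 and 0.25. Rrm2, the small subunit, was at 0.08 from 3 probe sets between -0.12 and 0.18. Tk1, which salvages thymidine, was the lowest of the role, with 3539 and 2724, at -0.37 or 1.30-fold lower. Tyms, which makes thymidylate, was the highest at 0.31, with 1285 and 1597 on the 1 measured of its 4 probe sets. A brighter probe set annotated with both Tyms and its pseudogene read 3515 and 3212, at -0.13. The 2 therefore differed in sign, and signals of Tyms and its pseudogene cannot be told apart on the latter. Dut, which removes dUTP, was at 0.03, and a further probe set with 724 and 960 reached the floor only in the knockout sample and was at least 1.31-fold higher.

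Genes that restore chromatin and methylation at the fork were measured for 3 of 4, with a median of 0.05. Dnmt1, the maintenance methyltransferase, was at 0.01 from 3 probe sets between -0.06 and 0.12, the lowest of the role. It read 8439, 4941 and 4375 in wild-type cells and 9146, 4744 and 4229 in the knockout sample. Uhrf1, which brings Dnmt1 to newly copied DNA, was at 0.05 from probe sets at -0.0034 and 0.10. Chaf1b, a subunit of the histone chaperone CAF-1, was the highest at 0.23, from 2247 and 1025 in wild-type cells and 1975 and 1604 in the knockout sample. Its probe sets differed in sign, at -0.18 on MOE430A and 0.65 on MOE430B.

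Further genes of replication, taken from lists of 69 genes, were measured for 55, with a median of 0.04 and 33 higher in the knockout sample. None had a mean over measured probe sets 1.5-fold different in either direction. Probe sets that reached the floor in 1 sample alone lay farther apart and both ways. Those of Ticrr (843 and 4150) and Top1 (682 and 1707) reached it only in the knockout sample. Another of Ticrr (1692 and 198) and those of Topbp1 (2033 and 871) and Nasp (2191 and 523) reached it only in wild-type cells. Fork protection and firing factors had a median of -0.02 with 5 of 11 higher: Atr, the kinase of the replication checkpoint, was at 0.52, Clspn, its adaptor, at 0.33 and Mcm8 at -0.29. Further replisome genes had a median of 0.13 with 7 of 11 higher, where Rnaseh2c, a subunit of the enzyme that removes RNA primers, was at 0.37, Top1 at 0.24 and Atad5 at 0.23. Nucleosome assembly genes had a median of 0.05 with 6 of 8 higher; Asf1b was at 0.20, Asf1a at -0.18 and Cabin1 at 0.15. Nucleotide synthesis and salvage genes had a median of 0.04 with 15 of 25 higher, led by Atic, of purine synthesis, at 0.51, by Cmpk1 at -0.47 and by Dck, a salvage kinase, at 0.47. The share of E2F motifs among the 59 of these genes with a promoter was 42.4%.

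**Figure D4:**
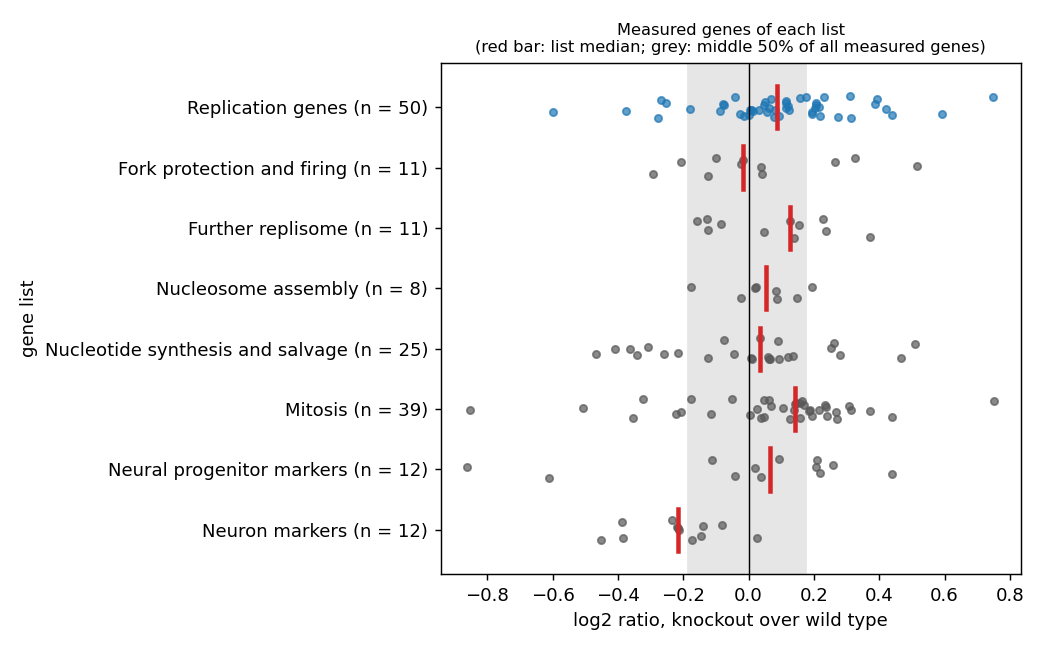
Log2 ratio of knockout over wild type (x axis) for the measured genes of each list (rows; points are genes, spread vertically for visibility), with the list median in red and the middle 50% of all measured genes in grey. The replication median of 0.09 lies between 0 and the mitosis median of 0.14, and the neuron markers lie lower, with a median of -0.22.

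Members with and without an E2F match overlapped in their log2 ratios. The 28 measured members with a match had a median log2 ratio of 0.08, with 22 higher, and the 14 without had a median of 0.02, with 8 higher and a wider range, from -0.60 to 0.75, which holds both Mcm10 and Rfc5. Over all measured genes the medians were -0.0022 for 1638 genes with a match and -0.0033 for 6611 without. Mcm6, with 5 matches, was at 0.19, Pola1, with 4, at -0.18, and Mcm5, with 3, at 0.01. The difference between members with and without a match was not tested.

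Genes of mitosis, which are expressed later in the cycle, had a median of 0.14 with 30 of 39 higher, led by Ckap2 at -0.85 and Kif20b at 0.75. The gap between their median and that of the replication genes was not tested. E2f4 itself had 1812 in wild-type cells and 1535 in the sample labelled knockout on its 1 probe set, and since the labels do not place that probe set relative to the deletion, it does not check the genotype. All 12 neural progenitor markers were measured, with a median of 0.07, 8 higher and 4 lower. Pax6 was the highest at 0.44, followed by Fabp7 at 0.26, while Sox2 was at 0.04 and Nes at -0.04. Hes5 at -0.86 and Sox1 at -0.61 were at least 1.5-fold lower, each from probe sets that disagreed in size. All 12 neuron markers were also measured, and 11 were lower in the knockout cells; their median was -0.22 and their summed signal on MOE430A was 159758 in wild-type and 141022 in knockout cells. Markers of other cell types were measured in part. The 3 measured of 6 erythroid genes, all embryonic globins, were lower, with a median of -0.51 and Hbb-bh1 at -0.88. The 3 measured of 7 oligodendrocyte lineage genes were also lower, with a median of -0.43 and Sox10 at -0.66, each on 1 measured probe set. Other probe sets of this list lay both ways. Those of Pdgfra (658 and 1002) and Mbp (350 and 813) reached the floor only in the knockout sample. Those of Olig2 (1022 and 725) and Cnp (944 and 639) reached it only in wild-type cells. Of microglia markers 3 of 6 were measured, Laptm5 at -0.63, Csf1r at -0.25 and Cd14 at 0.58. Laptm5 and Cd14 had 1 measured probe set each, and those of Csf1r ran from -0.64 to -0.04. Another Laptm5 probe set (883 and 1178) reached the floor only in the knockout sample. Of endothelium markers 2 of 6 were measured, Eng at -0.39 and Kdr at 0.38. A probe set of Flt1 (244 and 2226) reached the floor only in the knockout sample, and its other probe sets were below it in both. Of astrocyte markers 2 of 6 were measured, Aqp4 at -0.30 and Slc1a2 at 0.06, from probe sets at 0.40 and -0.28. Probe sets of Gfap (404 and 1094), Aldoc (616 and 1055) and Slc1a2 (672 and 1005) reached the floor only in the knockout sample. Summed over all astrocyte probe sets, wild-type and knockout signals were 3295 and 3955 on MOE430A, and 11758 and 14161 on MOE430B. These sums include probe sets below the floor in both samples, so they give no direction for the list. On MOE430A only the Aldoc probe set named above reached the floor. On MOE430B the largest signals, 6476 and 8564, came from 1 probe set of Slc1a2. The part of a different share of neurons or of these other cells in the small upward shift of the replication genes was not tested. In such bulk samples, fewer cells of a type and less RNA per cell cannot be told apart.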

How the data were processed

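Gene expression was measured in 4 arrays, 1 per genotype on each of 2 designs. The deposited values are MAS5 signal intensities on a linear scale, made by the authors with MAS5 per the submitters' processing notes; its version and scaling target are not given in the sources used here, and no detection calls were used. Instrument records, per their file headers, put both genotypes of each design on 1 hybridisation day and the designs on 2 days, so day does not separate the genotypes.

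For each probe set, knockout over wild type was taken inside its design as a log2 ratio, and the median of measured probe sets (-0.0033 for MOE430A, -0.0014 for MOE430B) was subtracted. Control probe sets were left out. Measured probe sets of a gene were averaged. Probe sets at or above the floor in 1 sample gave a bound, the brighter signal over the floor, written as at least N-fold. Symbols came from the platform annotation, and their gene identifiers were looked up in RefSeq (GRCm38.p6), which held 18032 of 18193 and changed none. Arrays limit precision by their number, and with 1 sample per genotype there was no test; fold sizes of 1.5 and 2 stand in its place. Members and lists were chosen with earlier results of these data known. Every member could be named; signals are given for members at least 1.5-fold different, the highest and lowest of each role and those above the floor in 1 sample alone, and further members were given signals after their values were seen. Other list genes named are those at least 1.5-fold different, or else the 3 farthest from 0. Sox2, Nes and the other cell type markers under 1.5-fold were picked with their values in view. So were the list genes named for a probe set at or above the floor in 1 sample alone. The scripts were tested on simulated data. Software was Python 3.11.15 with pandas 2.3.3, numpy 2.4.6, statsmodels 0.14.6 and matplotlib 3.10.9. Alternatives covered the floor, a pseudocount, the scaling, the choice of probe sets and each design alone.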

Additional observations from a re-analysis of the deposited data

How the results depend on the processing

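The median log2 ratio of the replication genes was above 0 under all 11 alternative settings chosen at the outset, from 0.04 with a floor at the 70th percentile to 0.17 on MOE430B alone, where 9 members were measured. The count of members higher was 29 of 50 where the brightest probe set stood for a gene, and 7 of 9 on MOE430B. The shares of all measured genes higher there were 49% and 49.7%. With the floor at the 30th percentile, the polymerase median was -0.26 and Mcm10 was at 0.066. A floor at the 70th percentile left 1 member 1.5-fold higher, a licensing median of 0.043 and a clamp and loader median of -0.019. With no floor, 6 members were 1.5-fold higher and 3 lower, the polymerase median was -0.35 and Mcm10 was at 0.30. The shares of all genes past 1.5-fold were not taken under the alternatives, so the counts past 1.5-fold there have no comparison. With a pseudocount equal to the floor, 0 members were 1.5-fold higher and 0 lower, the polymerase median was -0.14 and Mcm10 was at 0.030. With the brightest probe set, the licensing median was 0.074, the clamp and loader median -0.014 and the chromatin median -0.0034. Without probe sets ending in _x_at, _s_at or _a_at, 0 members were 1.5-fold lower and the polymerase median was -0.037. On MOE430B alone, 0 members were 1.5-fold lower, the clamp and loader median was 0.78 from 1 gene, the chromatin median 0.30 and that of the other replication genes 0.11. When genes with a single measured probe set were left out, an alternative added after seeing the data, 22 of 27 members were higher. Of all genes with more than 1 measured probe set, 51.9% were higher. In that setting 0 members were 1.5-fold higher, 0 were 1.5-fold lower and the licensing median was 0.040. These alternatives change which probe sets enter. The pseudocount also draws ratios towards 0 by its arithmetic: Rfc5 and Pole, on 1 probe set each, were at 0.51 and 0.45 there. The cause of each shift beyond this was not tested. Removing the centring, quantile normalization and lowess reversed no median of a role, and 37, 39 and 38 of 50 members were higher. The shares of all measured genes higher were 49.4%, 50% and 50% in that order. Of the single-gene values under all alternatives, 55 of 514 had the opposite sign, from 22 members, 13 of them with the brightest probe set; Mcm10 was the only one of these at least 1.5-fold different before. No paired analysis was possible because each genotype had 1 sample per design.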

Other observations

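Several member probe sets below the floor in both samples had signals far apart, which carry no order: Gins1 had 1 with 662 in wild-type and 43.2 in knockout cells, Orc3 1 with 62.3 and 557, Pole2 1 with 490 and 84.3, and Orc1 1 with 183 and 537. A probe set annotated with both Orc4 and Acvr2a was likewise below the floor, with 567 and 766.

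The promoters of helicase activation genes, held for 5 of the 8, differed from those of the other roles in the share with the CHR motif. The CHR motif was in 4 of 5 of them, Cdc45, Cdc7, Dbf4 and Gins3, and in 14.5% of measured genes. It was in 1 of 13 for origin licensing, 1 of 7 for polymerases and primase and 1 of 10 for the clamp and loader role. For chromatin at the fork it was in 1 of 4 and for nucleotide synthesis in 0 of 5. The E2F motif was in 2 of 5 helicase activation genes, Cdc7 and Gins3, the same share as for nucleotide synthesis. The pattern of the CHR motif was noticed after the search and was not tested.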
